A study of Saccharomyces cerevisiae with 50 samples.

Results

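Ribosome assembly factors are the proteins that fold, modify, cut and transport ribosomal RNA precursors without staying in the finished ribosome. The 41 genes described here were fixed by their open reading frames and came from 6205 open reading frames on the arrays. They comprise 3 core proteins of the box C/D particles, 3 of the H/ACA particles, 10 proteins of the small subunit (SSU) processome, 3 proteins that act early or on both subunits, and 22 factors of the large subunit precursor (pre-60S). All 41 were measured at 20 or more time points and entered every test, so no member was lost to the filter. Of them, 32 were measured on all 50 arrays, 8 on 49 and NOP58 on 48.

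The cells were budding yeast (Saccharomyces cerevisiae) of a yox1 deletion mutant, synchronised by a G1 arrest with alpha factor, a mating pheromone, and released into the rich medium YEPD. YOX1 encodes a homeodomain repressor of genes expressed around the transition from mitosis to G1. Samples cover 0 to 120 min in steps of 5 min, which makes 25 time points, and each was hybridised to 2 arrays (array set 1 and array set 2) that the design text describes as technical repeats. On every array the Cy5 channel held the mutant time point and the Cy3 channel held RNA of an asynchronous wild-type culture grown in YEPD. No dyes were exchanged, and a time course of wild-type cells was not used here, so strain, culture state and dye cannot be told apart in any level against the reference. The sampling interval reads 10 min in the treatment label, against 5 min in the design text. The labels of 1 array disagree, its title giving 75 min and its source name 0 min (it was used as 75 min). In set 2, 3 array titles (0, 5 and 15 min) carry the letter M, whose meaning is not given. The array titles also hold dates, which differ between most early and most late times in both sets. The labels do not say that cultures were repeated, so p-values reflect how far single time points lie from the fitted curve and do not cover differences between cultures.

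In the nucleolus, RNA polymerase I makes a long precursor from which most ribosomal RNAs are cut. Box C/D and H/ACA particles guide methylation and pseudouridylation of this precursor, the SSU processome folds its small subunit part, and pre-60S factors mature the large subunit part before export. In growing yeast the genes of these factors are known to be transcribed together and to follow growth conditions. Many of them carry the promoter elements PAC and RRPE, which the repressors Dot6, Tod6 and Stb3 bind.

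The arrays of 0 min showed the pheromone state. FUS1, a cell fusion gene induced by pheromone, stood at log2 ratios of 3.67 and 3.96 in sets 1 and 2, AGA1 at 4.88 and 6.02, and BAR1, the protease of a cells that degrades alpha factor, at 2.52 and 3.06. YOX1 lay below the reference on 49 of 49 arrays, between -2.25 and -0.02. The position of its probe relative to the deletion is not stated. Across genes, the 2 arrays of a time point correlated with a median Pearson's r of 0.716 (0.521 to 0.839). The arrays of 25, 40 and 55 min had a wide spread. The standard deviation of log2 ratios over genes was 0.744 to 1.23 on these 6 arrays and 0.333 to 0.828 on the other 44, so the ranges overlapped. These 3 time points were picked from earlier results of these data, and the tests below are given with and without them.

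Most of the 41 genes followed a shared course that fell from 0 min to a minimum 20 to 25 min after release. It rose to another high near 60 min and had a second, shallower minimum near 85 min. Without 25, 40 and 55 min, 33 of 41 genes were lowest at 15 or 20 min. The profiles of NOP58, NOP56 and TIF6 were then the least like those of the other members. All log2 ratios, above and below, are those of the mutant time point to the reference after centring on the median of each array. A value of 0 is thus the median ratio of the array, not equality of RNA amounts. Below or above the reference means below or above that median ratio. The median over the 41 genes was -0.30 at 0 min, -0.91 at 10 min, -1.17 at 20 min, -1.42 at 25 min, -0.95 at 30 min, -0.55 at 45 min, -0.42 at 60 min, -0.71 at 80 min, -0.83 at 85 min and -0.39 at 120 min. The genes thus stood lowest early in the course and did not return to that depth in the second cycle. At 10, 15, 20, 30, 35, 45, 50 and each time from 70 to 105 min, all 41 genes lay below the reference in the mean of both arrays.

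Several single steps of this course were seen in nearly every gene. At 20 min, 38 of 41 genes were lower than at 0 min in both array sets, with a median difference of -0.86, while 41.5% of 5432 genes measured on these arrays were lower in both. The other 3 were NOP58, NOP56 and TIF6, which differed by 1.31, 0.23 and 0.31 in the mean of both sets. At 60 min, 40 of 41 genes were higher than at 20 min in both sets, with a median difference of 0.73, against 39.7% of all genes. At 85 min, 35 were lower than at 60 min in both sets (median -0.48), against 36.8% of all genes. At 120 min, 35 were higher than at 85 min in both (median 0.33), against 38.3%. At 85 min, 30 of 41 genes were higher than at 20 min in both sets, with a median difference of 0.36, against 36.4% of all genes. Compared with 0 min, 34 were lower at 85 min in both sets (median -0.43), against 37.0% of all genes. Compared with 60 min, 22 were lower and 4 higher at 120 min in both sets (median -0.08), against 28.8% and 31.9%. The arrays of 0 and 20 min differ in title date from those of 60 and 85 min in both sets. These times were picked after the course had been seen, so the counts are descriptive and carry no test.

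**Figure D1:**
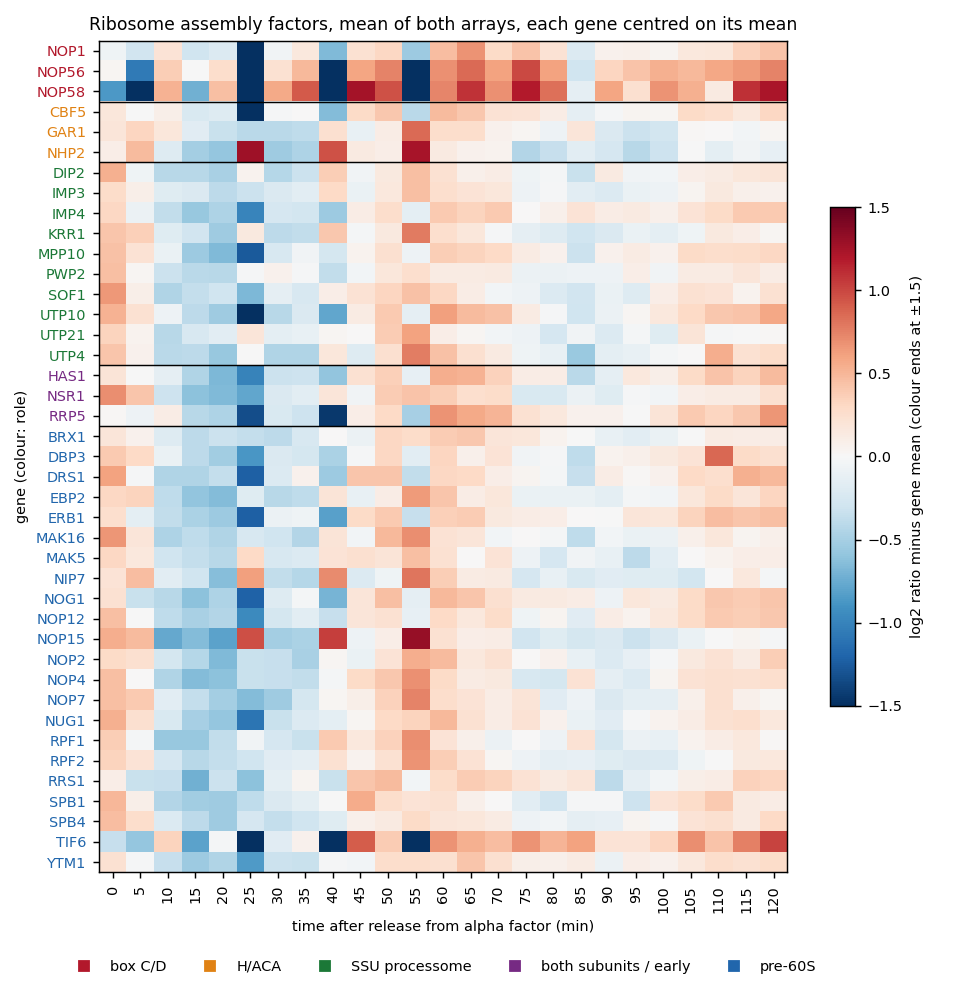
Log2 ratio of each of the 41 genes (rows, grouped by role) at the 25 time points (columns, min after release), as the mean of both arrays minus the gene's own mean over the course. Blue from 10 to 35 min and red near 60 min recur in most rows, and 25, 40 and 55 min break the pattern in opposite directions in genes such as NOP58 (blue) and NOP15 (red).

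**Figure D2:**
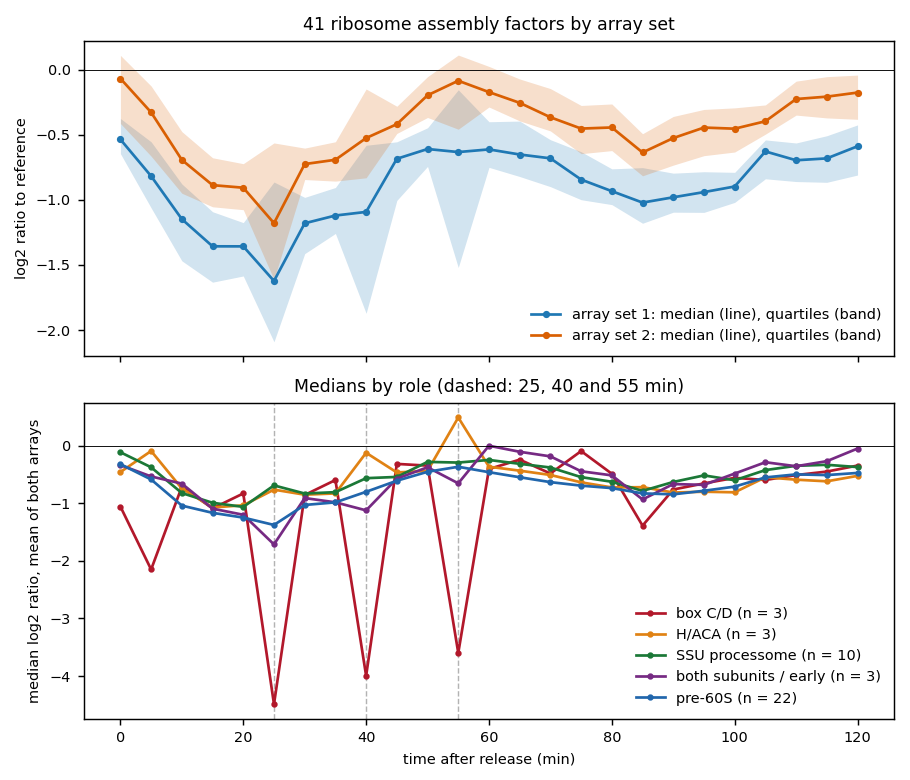
Top, median (line) and quartiles (band) of the 41 genes in array set 1 and array set 2 against time after release, in log2 ratio units. Bottom, medians by role from the mean of both arrays, where n is the number of genes and dashed lines mark 25, 40 and 55 min: the 2 sets share the course but not the level, and the box C/D genes drop at the marked times.

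Whether a gene followed a wave with the period of the cell cycle was tested by fitting a cosine and a sine wave beside a linear time trend. The period was 71 min, found from 78 marker genes of the cell cycle that include none of the 41. The course of 120 min starts at release from the arrest and is shorter than 2 periods. A response to the release and a repeating cycle therefore cannot be told apart by this test, and periodic below means only that the wave was called. A gene was called periodic at a Benjamini-Hochberg adjusted p under 0.01 in limma, adjusted over all genes tested. Of the 41 genes, 23 were periodic, where 13.3% of all 6063 genes were. Without 25, 40 and 55 min the count was 34 of 41, against 25.2% of 6065 genes. In array set 1 alone 14 were periodic (9.76% of all genes), in array set 2 alone 25 (11.6%), and 13 genes were called in both. At an unadjusted p under 0.05, 37 of the 41 passed, and 35.8% of all genes did. Of the genes called, 22 were periodic in both the full and the reduced course, 12 only in the reduced course and RPF1 only in the full course (adjusted p = 0.00886 with and 0.0131 without these times). The 6 called in neither were DBP3, NOP56, NOP58, PWP2, TIF6 and UTP21.

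The fitted maxima fell close together. The 23 periodic genes peaked between 53.6 and 63.0 min, with a median of 58.1 min, and without 25, 40 and 55 min the 34 periodic genes peaked between 52.7 and 64.4 min, with a median of 58.8 min. The peak times of these 34 genes in the 2 array sets differed by at most 6.91 min (median 2.18 min). Of the marker lists, targets of MBF, the late G1 regulator of DNA replication genes, peaked at a median of 23.5 min, and those of SBF, its partner for budding and cell wall genes, at 25.6 min. Histone genes peaked at 34.3 min, CLB2 cluster genes of G2 and mitosis at 55.9 min and SIC1 cluster genes of the exit from mitosis at 7.53 min. The peak-to-trough size (full height of the fitted wave) of the 23 genes was 0.51 to 0.98, with a median of 0.65. Over all 805 periodic genes the median was 0.68, so the called members had waves of about the usual size of called genes. The median over all 41 was 0.64, against 0.30 over all genes, called or not, and 1.32 for the CLB2 cluster. The difference in timing between the assembly factors and the CLB2 cluster was not tested.

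**Figure D3:**
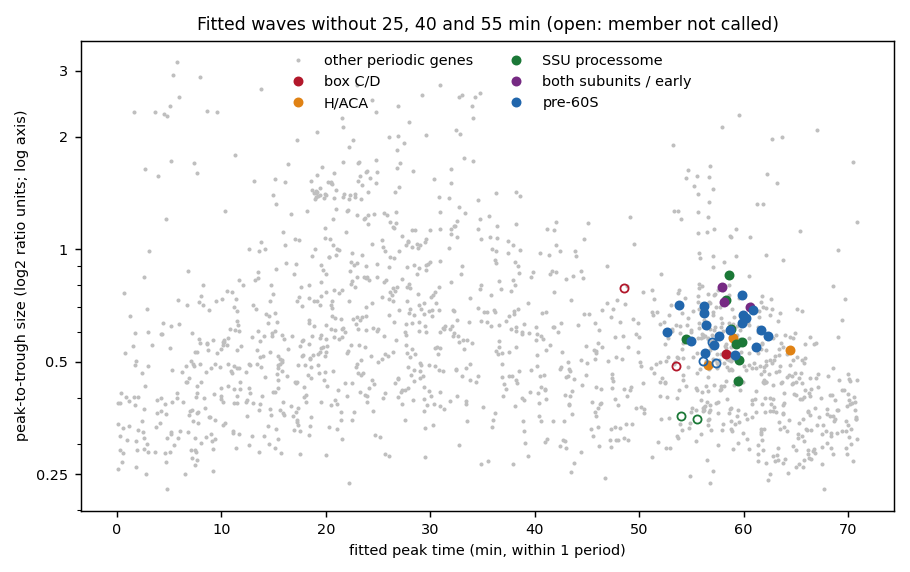
Peak-to-trough size (log2 units, log axis) against fitted peak time (min within 1 period) without 25, 40 and 55 min, for the 41 genes (coloured by role, open where not called periodic) and all other periodic genes (grey). The 34 called genes lie between 52.7 and 64.4 min with sizes of 0.44 to 0.85.

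Of the proteins of the guide RNA particles, none of the 3 box C/D genes was periodic over the full course, and 1 was without 25, 40 and 55 min. This was NOP1 (YDL014W), the fibrillarin that methylates ribosomal RNA, with a size of 0.52 ± 0.11 (SE, 22 time points), a peak at 58.3 min and an adjusted p of 0.00229. NOP1 had a size of 0.68 ± 0.25 in the full course (adjusted p = 0.126). NOP56 and NOP58, the paired scaffold proteins of the same particle, were not called in either course, with sizes of 0.90 ± 0.62 and 0.78 ± 0.76 over the full course (adjusted p = 0.537 and 0.723).

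Of the H/ACA proteins, GAR1 was periodic over the full course, with a size of 0.64 ± 0.12, a peak at 61.4 min and an adjusted p of 0.00158. CBF5, the pseudouridine synthase, and NHP2, an RNA-binding subunit, were called without 25, 40 and 55 min. Their sizes were 0.49 ± 0.07 and 0.58 ± 0.14, and the adjusted p-values were 8.38e-05 and 0.00638. In the full course CBF5 had 0.62 ± 0.23 (adjusted p = 0.123) and NHP2 0.66 ± 0.27 (adjusted p = 0.167). Without these times the 3 genes peaked at 64.4 (GAR1), 56.6 (CBF5) and 59.0 min (NHP2).

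Of the 10 SSU processome genes, 6 were periodic over the full course (UTP4, UTP10, IMP3, IMP4, SOF1 and KRR1) and 8 without the 3 times, when DIP2 and MPP10 joined them. UTP10 (YJL109C), a large scaffold protein of the complex that first binds the precursor, had the largest wave of all 41, with a size of 0.98 ± 0.22, a peak at 62.2 min and an adjusted p of 0.00694. Its log2 ratio was -0.34 in set 1 and 0.20 in set 2 at 0 min, -1.43 and -0.82 at 20 min, -0.15 and 0.18 at 60 min, -0.92 and -0.85 at 85 min, and -0.19 and 0.16 at 120 min. The low times at 20 and 85 min did not overlap with the high times at 0, 60 and 120 min in either set. Its lowest value, -2.57 in set 1 and -2.32 in set 2, was at 25 min, and without the 3 odd times its size was 0.85 ± 0.11 (adjusted p = 3.94e-05).

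UTP4, a subunit of the same complex as UTP10, had a size of 0.76 ± 0.14, a peak at 56.8 min and an adjusted p of 0.00153. Over set 1 it ranged from -1.22 (20 min) to 0.23 (55 min) with a median of -0.60, and over set 2 from -0.71 (85 min) to 0.52 (55 min) with a median of -0.19. PWP2, of another processome subcomplex, had the smallest wave of the 41, 0.32 ± 0.11 with an adjusted p of 0.0921. PWP2 was highest at 0 min in both sets, -0.50 and 0.21, and stood at -1.37 and -0.66 at 20 min.

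Of the 3 genes that act early or on both subunits, NSR1 and HAS1 were periodic over the full course and all 3 were without 25, 40 and 55 min. NSR1 (YGR159C), the nucleolin of yeast, had a size of 0.80 ± 0.15, a peak at 58.1 min and an adjusted p of 0.00131. It stood at -0.67 in set 1 and 0.21 in set 2 at 0 min, the highest values of each set, and at -2.03 and -1.07 at 15 min. At 60 min it had returned to -0.88 and -0.24, and at 85 min it stood at -1.44 and -0.61. Set 1 lay below set 2 at each of these times, and the profiles of the 2 sets correlated at 0.917 over the 25 time points. HAS1, a DEAD-box RNA helicase used for both subunits, had a size of 0.77 ± 0.15 (peak 60.8 min, adjusted p = 0.00184). RRP5, an RNA-binding protein needed for both subunits, had 0.82 ± 0.22 (adjusted p = 0.0226) in the full course and 0.70 ± 0.08 (peak 60.6 min, adjusted p = 1.37e-05) without the 3 times.

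Of the 22 pre-60S genes, 14 were periodic over the full course and 19 without 25, 40 and 55 min. NOP7 (YGR103W), ERB1 and YTM1 encode a trimeric complex of the early pre-60S particle. NOP7 had a size of 0.78 ± 0.12, a peak at 59.8 min and an adjusted p of 0.00023, and YTM1 0.62 ± 0.10, a peak at 61.1 min and an adjusted p of 0.000315. ERB1 had 0.54 ± 0.18 (adjusted p = 0.0832) in the full course and 0.57 ± 0.09 (peak 55.0 min, adjusted p = 0.000206) without the 3 times. NOP7 stood at -0.50 in set 1 and -0.12 in set 2 at 0 min, -1.33 and -1.22 at 20 min, -0.61 and -0.37 at 60 min, and -0.78 and -0.89 at 85 min. In both sets its values at 0 and 60 min lay above those at 20 and 85 min.

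The GTPase NUG1, which acts before export of the large subunit, had a size of 0.78 ± 0.14, a peak at 60.8 min and an adjusted p of 0.00066. It stood at -0.57 in set 1 and 0.08 in set 2 at 0 min, at -1.69 and -1.03 at 20 min and at -0.47 and -0.12 at 60 min. Over the full course the smallest adjusted p-values for a wave were those of BRX1 and RPF2, both proteins with the Brix domain. BRX1 had a size of 0.60 ± 0.07 and an adjusted p of 7.57e-06, and RPF2, which brings in 5S ribosomal RNA together with RRS1, had 0.67 ± 0.09 and 2.93e-05. RRS1 itself had 0.64 ± 0.13, a peak at 58.2 min and an adjusted p of 0.00221. The largest fitted size among pre-60S genes was that of the RNA-binding NOP15, 0.81 ± 0.28, which was not called in the full course (adjusted p = 0.0876) but was without the 3 times (0.75 ± 0.17, adjusted p = 0.00472). The smallest was that of the helicase DBP3, 0.49 ± 0.18 (adjusted p = 0.109).

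At 25, 40 and 55 min several assembly factors departed from their neighbouring times, in opposite directions and alike in both array sets. The departure is the value at such a time minus the mean of the time points 5 min before and after. NOP58 (YOR310C) stood at -5.20 in set 1 at 25 min, at -5.35 and -5.46 in sets 1 and 2 at 40 min, and at -3.17 and -4.09 at 55 min, while its medians over all times were -1.25 and -0.73. NOP56 stood at -3.78 and -5.20 at 25 min, -4.16 and -3.83 at 40 min, and -4.25 and -2.95 at 55 min. TIF6, which keeps immature large subunits from joining small ones, stood at -4.13 and -3.13, -4.22 and -2.79, and -4.27 and -2.26 at the same times. These 3 genes lay far below their own levels at every one of the 3 times in both sets, wherever a value was present.

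In the mean over the 3 times the departures were -3.99 for NOP58, -3.44 for NOP56, -2.58 for TIF6, -1.21 for NOP1, -1.11 for CBF5 and -1.11 for RRP5. In the other direction they were 1.36 for NHP2, 1.36 for NOP15 and 0.93 for NIP7, a pre-60S factor. NHP2 stood at 0.79 and 0.61 at 25 min, above the reference, after -1.36 and -0.94 at 20 min. Of the 41 genes, 6 departed by less than -1 (14.6%), 2 by more than 1 (4.88%) and 25 had a mean departure within 0.5 of 0 (61.0%). Of 5868 genes in all, the shares were 9.99%, 6.05% and 55.6%. Between the sets the departures correlated at 0.931 over the 41 genes and at 0.889 over all genes, as a description across genes that share arrays. Longer genes tended to lower departures over all genes (Spearman's rho = -0.356 over 5457 genes with a length), and over the 41 genes rho was -0.245. The part of gene length in these departures was not tested.

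NOP58 and NOP56 were also low outside these times. NOP58 stood at -2.75 in set 1 and -5.30 in set 2 at 5 min, and NOP56 at -1.41 and -2.89, and both were low at 85 min, with -1.81 and -1.60 for NOP58 and -1.60 and -1.18 for NOP56. The 2 arrays of 5 min thus went the same way and differed in depth. NOP58 also stood at -1.30 in set 1 and -3.57 in set 2 at 0 min, and at -2.04 and -2.55 at 15 min. At 10 min, between these times, it stood at -1.04 and -1.07. The set 2 arrays of 0, 5 and 15 min are the 3 with the letter M in the title, and their part in these low values was not tested.

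**Figure D4:**
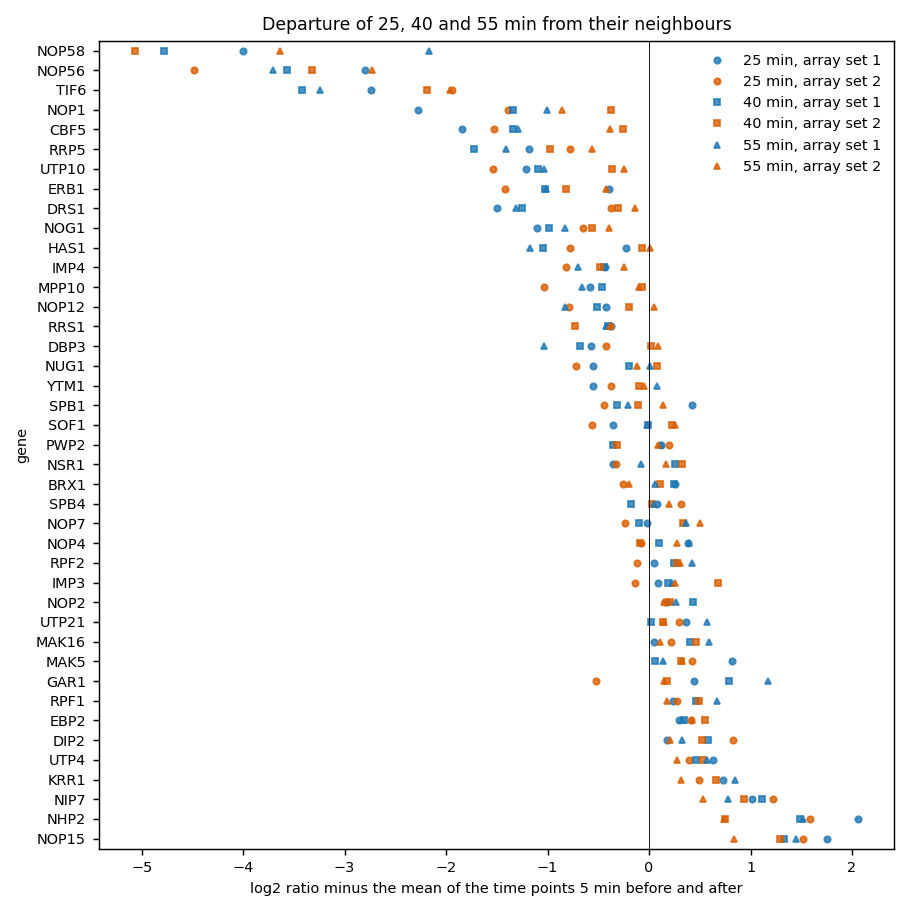
Departure of each of the 41 genes (rows, ordered by their mean departure) at 25, 40 and 55 min, in log2 units, for array set 1 (blue) and array set 2 (orange). The points run from -3.99 on average for NOP58 to 1.36 for NOP15, and the mean departure of 25 genes is within 0.5 of 0, although single points of some of them lie farther out (GAR1 at 1.17 in set 1 at 55 min).

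A drift over the course was tested as the linear time term of the same fit. It was upward in 6 of the 41 genes, where 5.24% of all genes rose, and downward in none. Slopes were positive in 33 of the 41 and in 2993 of all 6063 genes. Without 25, 40 and 55 min it was upward in 8 genes, against 8.08% of all genes. In array set 1 alone 2 of the 41 passed upward (3.22% of all genes), and in array set 2 alone 7 (8.87%). In log2 units per hour, RRP5 rose by 0.55 ± 0.13 (adjusted p = 0.00419), NOG1, a GTPase of the pre-60S particle, by 0.43 ± 0.10 (0.00244), and ERB1 by 0.41 ± 0.11 (0.00788). IMP4, a partner of MPP10 in the processome, rose by 0.40 ± 0.08 (0.000849), HAS1 by 0.36 ± 0.09 (0.00503) and YTM1 by 0.30 ± 0.06 (0.00077). IMP4 stood at -1.61 in set 1 and -0.72 in set 2 at 20 min, at -0.76 and -0.22 at 85 min, and at -0.64 and 0.02 at 120 min, so both late times lay above 20 min in both sets. At 0 min, however, IMP4 stood at -0.58 and -0.19. Of the late values, only that of set 2 at 120 min lay above this start. With the date in the array title as a factor, none of the 41 passed (73 genes in all did), and without the wave terms only 1 did. The title date changes with time. In set 1, 0 to 55 min and 120 min share 1 date and 60 to 115 min another. In set 2, all times from 60 min on share a date that, of the earlier times, only 10 min has. Drift and title date thus cannot be fully told apart.

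Over the whole course the 41 genes lay below the asynchronous reference. All 41 means were negative, from -1.57 to -0.14, with a median of -0.70, where 3034 of all 6063 genes had a negative mean. The median over all genes was within 0.01 of 0, which the centring of each array sets in advance. Tested with treat in limma against a fold change of 1.5, 14 of 41 were lower and none higher, where 3.6% of all genes were lower. The level depended on the array set. In set 1 alone 27 of 41 were lower (6.83% of all genes), in set 2 alone 3 (NOP4, MAK5 and SPB1; 1.94%), and the medians of the 41 means were -0.90 and -0.46. The mean was lower in set 1 than in set 2 for 40 of 41 genes, GAR1 being the other, and the median of the 41 was lower in set 1 at 25 of 25 time points, by 0.23 to 0.57. The spread of log2 ratios over all genes was also larger in set 1 at 24 of 25 time points, and its part in the difference was not tested. Leaving out 25, 40 and 55 min gave 17 of the 41, where 232 of 6065 genes in all were lower. Leaving out 15 min gave 8 of the 41 and leaving out 20 min gave 9, for which the share over all genes is not given here.

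The lowest means among those called were those of NOP58, -1.57 ± 0.26 (SE, 25 time points, adjusted p = 0.00717), and of NOP4 (YPL043W), an RNA-binding pre-60S factor, -1.29 ± 0.04 (3.60e-12). NOP4 was below the reference on all 50 arrays, from -2.24 to -0.63 in set 1 and from -1.71 to -0.56 in set 2. Its mean was also called in each set alone, at -1.45 and -1.12. TIF6 followed with -1.19 ± 0.16 (adjusted p = 0.00822), RRS1 with -0.98 ± 0.04 (4.98e-08), the methyltransferase SPB1 with -0.96 ± 0.05 (4.12e-07) and NOG1 with -0.95 ± 0.05 (9.85e-06). The means of NOP58 and TIF6 held the deep values of 25, 40 and 55 min, and without them they were -1.14 and -0.87, both still called (adjusted p = 0.00943 and 0.00078). By role, 11 of the 22 pre-60S genes were lower, 1 of 10 SSU processome genes (SOF1, -0.81 ± 0.04), 1 of 3 box C/D genes (NOP58), 1 of the 3 early genes (NSR1, -0.93 ± 0.05) and none of the 3 H/ACA genes. The difference between roles was not tested.

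**Figure D5:**
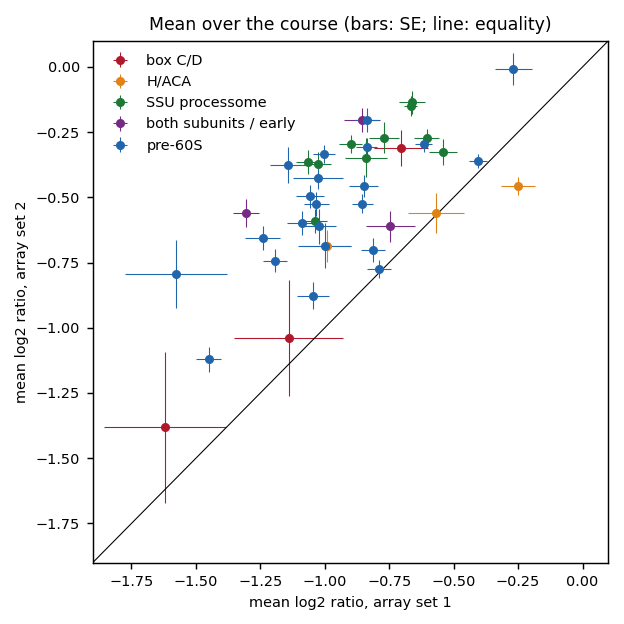
Mean log2 ratio over the course in array set 2 against that in array set 1 for the 41 genes, coloured by role, with standard errors over time points as bars and equality as the line. All but GAR1 lie above the line, with medians of -0.90 in set 1 and -0.46 in set 2.

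The first samples after release were tested for a departure from the fitted cycle with a term for 0, 5 and 10 min. None of the 41 genes passed over the full course, where 1.32% of all genes were higher. The term was positive in 38 of 41 genes, with a median of 0.30, and in 2936 of all 6063 genes. An unadjusted p under 0.05 was reached by 12 of the 41, all higher. Of all 6063 genes, 581 reached it and were higher, and 18.1% reached it in either direction. The largest terms were those of UTP10 (0.71 ± 0.27, adjusted p = 0.129), DBP3 (0.71 ± 0.19, 0.0248), MPP10 (0.61 ± 0.19, 0.0548), TIF6 (0.58 ± 0.64, 0.707), NSR1 (0.55 ± 0.17, 0.0501) and DRS1, a helicase (0.49 ± 0.24, 0.296). Without 25, 40 and 55 min, 3 of 41 were higher, where 3.64% of all genes were. These were SPB4, a helicase (0.48 ± 0.11, adjusted p = 0.00437), UTP10 (0.44 ± 0.10, 0.007) and KRR1, a processome protein (0.44 ± 0.11, 0.00947). Without these times 36 of 41 terms were positive (3122 of 6065 over all genes), and those of NOP1 (-0.13), NOP56 (-0.60) and TIF6 (-0.090) had turned negative. The positive sign also depended on the comparison. Where 0, 5 and 10 min were set against 70, 75 and 80 min, 25 of 41 differences were positive, the median was 0.04, 14 positive terms had turned negative and none of the 41 passed. In that form UTP10 had 0.04, MPP10 0.02, DBP3 0.15, NSR1 0.33, DRS1 0.0045 and TIF6 -0.75, while HAS1 went from 0.42 to -0.17 and RRP5 from 0.44 to -0.29.

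The 41 genes were next compared in shape with the median profile of the other members, as a description over time points that share arrays and reference. Pearson's r had a median of 0.787 over 25 time points, from 0.03 for NHP2 to 0.960 for NUG1, and 18 of 41 exceeded 0.8. Over 5736 other genes measured at every time the median was 0.003, and 1.60% exceeded 0.8. Without 25, 40 and 55 min the median of the members was 0.868 and 31 exceeded 0.8, while 3.35% of other genes did. NHP2 then had 0.731, NIP7 went from 0.228 to 0.743 and NOP15 from 0.248 to 0.880. NOP58, NOP56 and TIF6 stayed low, at 0.083, 0.252 and 0.456. Within set 1 the median r of the members was 0.677 and within set 2 it was 0.791.

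The 10 other genes most like the 41 were MRD1 (0.946), ARX1 (0.936), NOC4 (0.930), TRM2 (0.928), YLR287C (0.928), RTT10 (0.922), PHO90 (0.920), RRN3 (0.915), SRP40 (0.912) and NOP9 (0.911). MRD1, NOC4 and NOP9 encode small subunit assembly factors, ARX1 a factor for the export of the large subunit, RRN3 an initiation factor of RNA polymerase I and SRP40 a nucleolar protein. TRM2 encodes a methyltransferase of transfer RNA and PHO90 a phosphate transporter. Of the 100 most alike, 21 were on a list of 52 other small subunit factors, 10 on a list of other pre-60S factors, 2 on the RNA polymerase I list, 1 on the regulator list and 66 on none of these. The 5 genes of most opposite course were ASF1, a histone chaperone (-0.953), ERP3, of the secretory pathway (-0.928), PSF2, of the replicative GINS complex (-0.923), POL30, the replication clamp (-0.919), and ACM1, an inhibitor of the anaphase-promoting complex (-0.917). POL30 and ASF1 were also on the MBF list, whose median fitted peak was at 23.5 min.

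Other genes of the pathway were read from lists written with earlier results of these data known. Of 52 other small subunit factors, 28 were periodic over the full course and 38 without the 3 times, with a median peak of 57.1 min among those called in the full course. UTP20 had a size of 0.97 ± 0.14 and the helicase DHR2 1.01 ± 0.15, close to UTP10. Of 42 other pre-60S factors tested, 16 and then 29 were periodic (median peak 56.5 min in the full course). Of 15 genes of RNA polymerase I and its factors, 5 and then 10 were periodic, where 13.3% and then 25.2% of all genes were. Those 5 were RPA43 (peak 59.2 min), RPA34 (60.8 min) and RRN3 (59.2 min), together with RRN7 and RRN9, which peaked earlier, at 41.9 and 42.0 min. Against the reference, 13 of the 52 other small subunit factors and 20 of the 42 other pre-60S factors were lower, where 3.6% of all genes were. Of the 15 polymerase I genes 1 was lower, RRN3 (-0.93 ± 0.04), which is near the share of all genes. None on these lists was higher. The difference in share between these lists and the 41 genes was not tested.

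Of 10 regulators of ribosome genes, 1 was periodic over the full course and 2 without the 3 times, where 13.3% and 25.2% of all genes were. The first was IFH1, a coactivator of ribosomal protein genes, with a size of 0.63 ± 0.14 and a peak at 50.4 min (adjusted p = 0.00714). Without the 3 times CRF1, a corepressor of ribosomal protein genes, was called as well, with a peak at 39.4 min. The means of IFH1 (-1.18 ± 0.05) and TOD6 (-1.09 ± 0.06) were called lower than the reference, where 3.6% of all genes were. TOD6 had a size of 0.69 ± 0.19 with a peak at 57.7 min and was not called (adjusted p = 0.0308). The related repressor DOT6 had a size of 0.14 ± 0.13 (adjusted p = 0.671) and STB3 of 0.34 ± 0.14 (adjusted p = 0.161). SFP1, an activator of the assembly factor genes, had 0.49 ± 0.22 with an adjusted p of 0.226. FHL1, which holds IFH1 at promoters, rose over the course by 0.43 ± 0.08 log2 units per hour (adjusted p = 0.000514).

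RPF1 and GAR1 are neighbours on the same chromosome in the gene table used for names, without overlap, and their profiles correlated at 0.664.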

How the data were processed

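Each array came as log10 ratios that the authors had deposited. The base is inferred from the values, which end at exactly -2 and 2, and the direction, Cy5 over Cy3, from the dyes and the pheromone genes at 0 min. Neither is stated. How the arrays were scanned, background-corrected and normalized is not given in the sources used here. No intensities were used, so the number of arrays limits the precision. Array medians lay between -0.0007 and 0.0478 on the log10 scale, and 4.34% of values were missing.

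From 6217 rows, 12 control rows were left out, and 5703 open reading frames were named by a gene table of assembly R64. The 212 ratios at either limit were treated as missing. The remaining ratios were turned into log2, centred on the array median and averaged over the 2 arrays of a time point, and genes measured at 20 or more time points were tested with limma 3.58.1 in R 4.3.3. The period was searched between 40 and 90 min. The scripts were tested on simulated data. Plots were drawn with matplotlib 3.10.9 (Python 3.11.15).

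The 41 genes, the lists and the tests were chosen with earlier results of these data known. Named members are the 6 of largest effect per test among those called, the largest and smallest wave of each role, and those behind counts of 5 or fewer. Of other genes, the 10 most and 5 least alike in shape are named. Genes outside this rule, such as BRX1, RPF2, UTP20 and DHR2, were chosen after their values were seen. Alternatives are given in the closing section. A planned description of promoter motifs was not run.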

Additional observations from a re-analysis of the deposited data

How the results depend on the processing

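The period was 71 min, 71 min in set 2 and 72 min in set 1. Periodic members, 23 of 805 periodic genes, numbered 14 to 25 when an array set or a time point was left out (566 to 1031 genes in all). They numbered 15 with a period 5 min longer and 11 with 2 harmonics (501 genes), and the total was 1529 without 25, 40 and 55 min, 1213 with arrays scaled to the same spread and 1443 at an adjusted p under 0.05. Their median peak, 58.1 min, ranged from 57.5 to 60.1 min over the omissions. It was 58.8 min without the 3 times, 57.1 min without the array labelled both 75 and 0 min, 57.2 min without the 3 arrays with the letter M, 59.7 min without centring and 60.4 min with scaled arrays. It was 59.2 min with the longer period, 57.3 min without a linear term, 58.9 min with a quadratic term and 59.8 min with 2 harmonics. In the linear trend, upward members, 6 of 683 genes in either direction, numbered 2 to 8 over the omissions (376 to 1057 genes), 3 with scaled arrays, 0 with title date (73 genes), 13 at 0.05 (1518 genes) and 1 without wave terms. Release, 0 of 157, numbered 0 to 2 over the omissions (75 to 263 genes) and 3 of 466 without the 3 times. It called 1 member with scaled arrays, 1 with title date, 2 of 362 at 0.05, 2 with the longer period, 2 with 0 and 5 min as release, and 94 genes in all with 0 min alone. In the mean against reference, lower members, 14 among 344 genes in either direction, numbered 3 to 27 over the omissions (187 to 629 genes), 9 without centring, 40 of 4043 against 0 and 1 of 71 against a fold change of 2. With array set as a factor and the time point as the block over 50 arrays, 28 members were periodic (973 genes, median peak 59.1 min), 10 rose (950 genes), 2 were called for release (235) and 17 were lower (384). The median r with the member profile ranged from 0.677 to 0.791 between sets. The release term of TIF6, 0.58, turned to -0.090 without the 3 times and -0.75 against 70, 75 and 80 min. Over the 41 genes, 3 positive release terms turned negative without the 3 times and 14 against 70, 75 and 80 min, where the median was 0.04. The causes were not tested. The signal over background of these arrays is unknown.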
